A study of Homo sapiens with 6 samples.

Results

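The 37 genes described here carry out glycolysis or belong to the hypoxia response that controls much of it. They comprise 19 glycolytic enzymes and their regulators, 3 genes of glucose uptake, lactate export and pyruvate entry, 7 genes of the hypoxia-inducible factor (HIF) system and 8 HIF target genes. They were picked by name for their place in the pathways, with earlier results of these data known, and each name matched 1 of the 63186 Ensembl identifiers in the table. RNA was sequenced from RBE, an established human intrahepatic cholangiocarcinoma line (a cancer of the bile ducts inside the liver). For 3 libraries the cells received a control siRNA (si-Ctrl), and for 3 an siRNA against CHAF1A (si-CHAF1A), both with Lipofectamine 3000 at about 60% confluency. Cells of both groups were kept in DMEM with serum, had their medium changed after 24 h and were harvested at 48 h. CHAF1A encodes the large subunit of a chromatin assembly factor that deposits histones behind the replication fork. The labels name neither the siRNA sequences nor their number, and name no low-oxygen treatment.

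Glycolysis splits glucose into pyruvate in the cytosol. Hexokinases trap the sugar, phosphofructokinases commit it to breakdown, the later enzymes recover ATP, and lactate dehydrogenase turns pyruvate into lactate. When oxygen is ample, the EGLN prolyl hydroxylases mark the HIF alpha subunits HIF1A and EPAS1, and the VHL ubiquitin ligase then has them destroyed. When oxygen falls, the alpha subunits persist, pair with ARNT and bind short DNA words with the core ACGTG or GCGTG near their targets, among them many glycolytic genes. Because control of the alpha subunits acts largely on the protein, their transcript levels do not give HIF activity.

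The libraries held 15643381 to 20918997 counts. CHAF1A stood at 51.5, 59.8 and 51.0 CPM (counts scaled to library size with TMM factors) in si-Ctrl 1, 2 and 3 and at 11.1, 12.9 and 11.2 CPM in si-CHAF1A 1, 2 and 3. The targeted gene was thus 4.61-fold lower in the knockdown libraries (edgeR adjusted p = 2.57e-10, log2 fold change -2.21 with SE 0.10). The si-Ctrl 2 library, the deepest, stood apart from the other controls: a chi-square per degree of freedom was 13.7 and 13.9 against them and 2.28 between them. All 7 biliary epithelium markers were above 1 CPM in every library, with a sum of 4139 to 4806 CPM in si-Ctrl and 5353 to 5874 CPM in si-CHAF1A libraries. Among them 5 passed as higher and SOX9 as lower (edgeR adjusted p = 0.00674), beside 18.5% and 19.3% of all tested genes. Of the 6 leukocyte markers 5 stayed under 1 CPM in every library, as did 5 of 6 hepatocyte, 3 of 6 fibroblast and 3 of 5 endothelial markers. The latter 3 lists were higher in sum in knockdown cells. Hepatocyte markers went from 16.3-25.5 to 30.2-53.0 CPM, with SERPINA1 as the marker above 1 CPM. Endothelial markers went from 2.41-4.22 to 7.01-8.92 CPM. Of these VWF was at 0.576, 0.960 and 0.344 CPM in si-Ctrl 1, 2 and 3 and at 5.05, 2.64 and 3.59 CPM in si-CHAF1A 1, 2 and 3. VWF passed the filter on low counts only through the knockdown libraries, so its call as higher is no support for the list. PECAM1 did not pass. Fibroblast markers went from 8.66-11.8 to 16.02-36.2 CPM and were highest in si-CHAF1A 1. There COL1A1 was at 23.4 CPM, against 11.3 and 11.8 CPM in si-CHAF1A 2 and 3. COL1A2 was at 5.47 CPM there, against 0.172 and 0.0561 CPM. PDGFRB was 4.11-fold higher (edgeR adjusted p = 4.56e-06), and COL1A1 did not pass (0.0717). Leukocyte markers summed to 1.55-1.79 CPM in si-Ctrl and to 0.729-1.32 CPM in si-CHAF1A libraries. Their part in the results below was not tested.

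The promoters of 6 members are shown because they span the outcomes, from LDHA, PGK1, BNIP3 and EGLN3, which fell, to PFKL and EPAS1, which rose. Each runs 5′ to 3′ on the gene's strand, from 250 bases before to 50 after a RefSeq start (GRCh38.p14), and capitals mark ACGTG or GCGTG on either strand (CACGT and CACGC are their reverse complements, and CACGTG holds ACGTG on both strands and is also an E-box). The windows lie at chr11:18394313-18394612 (LDHA, plus strand), chrX:78103998-78104297 (PGK1, plus), chr10:131981874-131982173 (BNIP3, minus), chr14:33951025-33951324 (EGLN3, minus), chr21:44299803-44300102 (PFKL, plus) and chr2:46297157-46297456 (EPAS1, plus). Of the 2 LDHA windows in the table, the one with more matches is shown.
LDHA: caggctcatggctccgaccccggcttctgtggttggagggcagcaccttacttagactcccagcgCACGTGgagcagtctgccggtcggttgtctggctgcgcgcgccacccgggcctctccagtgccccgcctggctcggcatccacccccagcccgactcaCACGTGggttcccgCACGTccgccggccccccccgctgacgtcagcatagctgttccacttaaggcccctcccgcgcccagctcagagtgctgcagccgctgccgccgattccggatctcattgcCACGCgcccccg
PGK1: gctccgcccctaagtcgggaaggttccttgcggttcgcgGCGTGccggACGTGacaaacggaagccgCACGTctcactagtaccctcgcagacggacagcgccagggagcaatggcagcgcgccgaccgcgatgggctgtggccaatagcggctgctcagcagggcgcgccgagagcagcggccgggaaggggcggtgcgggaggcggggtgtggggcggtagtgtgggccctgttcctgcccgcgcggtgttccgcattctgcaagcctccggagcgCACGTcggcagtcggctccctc
BNIP3: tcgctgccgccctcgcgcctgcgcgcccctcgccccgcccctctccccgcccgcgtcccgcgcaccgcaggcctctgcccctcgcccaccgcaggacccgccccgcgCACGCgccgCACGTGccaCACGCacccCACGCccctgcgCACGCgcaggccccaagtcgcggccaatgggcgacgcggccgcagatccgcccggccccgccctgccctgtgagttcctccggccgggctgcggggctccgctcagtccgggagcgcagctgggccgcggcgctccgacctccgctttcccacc
EGLN3: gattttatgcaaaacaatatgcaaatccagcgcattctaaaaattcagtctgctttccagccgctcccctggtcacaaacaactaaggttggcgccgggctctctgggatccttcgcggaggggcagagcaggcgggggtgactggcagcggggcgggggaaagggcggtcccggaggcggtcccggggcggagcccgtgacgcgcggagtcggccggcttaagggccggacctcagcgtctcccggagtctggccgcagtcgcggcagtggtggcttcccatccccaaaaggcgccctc
PFKL: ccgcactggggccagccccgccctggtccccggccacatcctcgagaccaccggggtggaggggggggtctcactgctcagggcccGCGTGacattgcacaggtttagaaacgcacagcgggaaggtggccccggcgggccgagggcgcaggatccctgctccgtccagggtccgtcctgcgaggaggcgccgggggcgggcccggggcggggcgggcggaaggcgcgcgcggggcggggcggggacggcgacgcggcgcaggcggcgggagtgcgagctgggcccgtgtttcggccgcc
EPAS1: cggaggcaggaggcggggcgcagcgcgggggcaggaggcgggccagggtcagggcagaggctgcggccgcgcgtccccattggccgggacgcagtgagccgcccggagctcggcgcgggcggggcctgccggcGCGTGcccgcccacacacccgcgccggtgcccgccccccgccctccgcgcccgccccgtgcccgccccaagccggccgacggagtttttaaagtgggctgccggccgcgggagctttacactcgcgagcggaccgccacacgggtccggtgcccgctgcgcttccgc

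LDHA holds CACGTG 185 and 87 bases before its start and CACGT 73 bases before it, and CACGC 38 bases after it. PGK1 holds 4 separate matches and BNIP3 holds 5, of which 1 is CACGTG. PFKL and EPAS1 each hold 1 GCGTG, 164 and 117 bases before the start. EGLN3, the member with the largest fall, holds neither word in this window. RefSeq windows were found for 33 members, 61 windows in all, and none for VHL, VEGFA, BNIP3L and NDRG1. ACGTG lay in 24 of the 61 (39.3%), against 21.4% of all 35116 windows in the table, and ACGTG or GCGTG lay in 40 (65.6%) against 48.4%. Split by outcome, at least 1 window with ACGTG was found for 10 of 15 members that fell, 9 of 13 that did not pass the test and 1 of 4 that rose, against 24.9% of all 27305 named genes. For ACGTG or GCGTG the counts were 13 of 15, 12 of 13 and 4 of 4, against 52.4% of all. These counts describe letters and not binding, and genes with several windows have more chances of a match.

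Of the 37 members 36 had enough reads to be tested, and 16 were lower and 5 higher in knockdown cells. The share lower was 44.4%, where 19.3% of all 15911 tested genes were lower, and the share higher was 13.9%, where 18.5% of all were higher. The median log2 fold change of the members was -0.11, against 0.00 for all tested genes. All tested genes were not matched to the members by level, and several members rank among the most abundant genes. The part of level in these shares was not tested. In 17 members every knockdown library lay below every control library and in 7 every one lay above (24.1% of all tested genes in each direction). Of the enzymes, 10 of 18 tested were lower and 2 higher, with a median of -0.23. Of the transport and pyruvate entry genes, 2 of 3 were lower, with a median of -0.43. In the HIF system 2 of 7 fell and 1 rose, and among the HIF targets 2 of 8 fell and 2 rose. Without si-Ctrl 2 the members called came to 9 higher and 17 lower (background 21.3% and 22.5%), as HK1, ALDOA, SLC16A3 and VEGFA then passed as higher and GAPDH as lower. RNA came from whole cultures, so fewer expressing cells and less RNA per cell cannot be told apart.

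**Figure D1:**
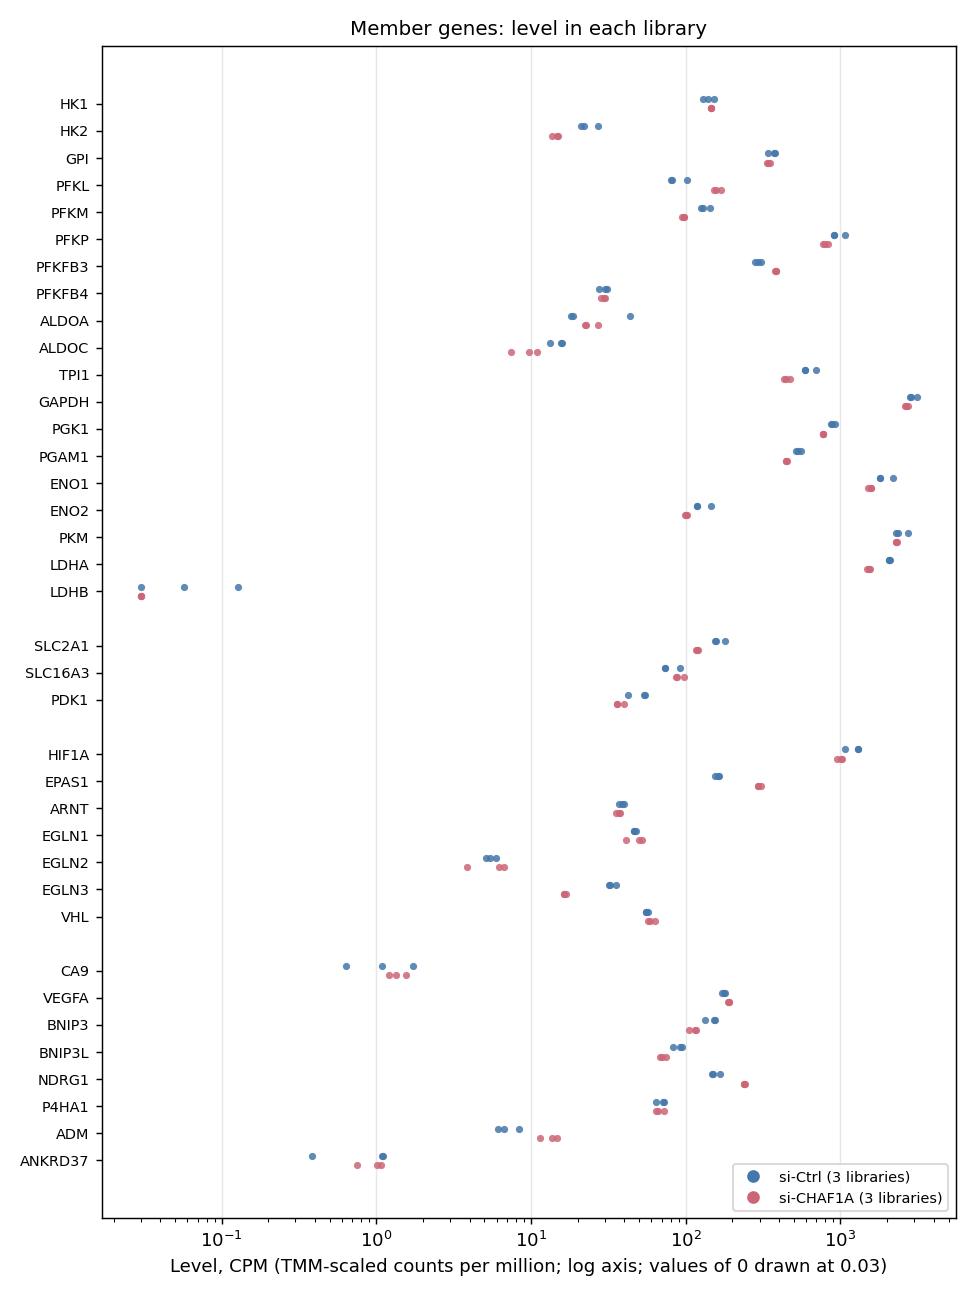
Level of each of the 37 members in each library (x axis, CPM on a log scale; y axis, genes in order of role; blue, 3 si-Ctrl libraries; red, 3 si-CHAF1A libraries). LDHB lies near 0, EGLN3 and LDHA separate to lower levels in the knockdown libraries, and EPAS1 and PFKL separate to higher levels.

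At the entry step, the cells held little HK2, the inducible hexokinase often raised in tumours, and lost part of it. HK2 (chromosome 2, 74833981 to 74893359) stood at 21.2, 27.1 and 22.0 CPM in si-Ctrl 1, 2 and 3 and at 14.7, 15.0 and 13.7 CPM in si-CHAF1A 1, 2 and 3. Every knockdown library was below every control, a 1.62-fold fall (log2 fold change -0.70, SE 0.11, edgeR adjusted p = 0.000132). HK1, the housekeeping hexokinase, read 130, 152 and 138 CPM in control and 146, 146 and 146 CPM in knockdown libraries. Those ranges overlapped (log2 fold change 0.06, SE 0.07, adjusted p = 0.546), although HK1 passed without si-Ctrl 2 (0.11, adjusted p = 0.0433). GPI, which isomerises the trapped sugar, was at 363 ± 20.4 and 343 ± 7.57 CPM (mean ± SD, n = 3 each here and below) with overlapping groups.

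At the committing step the 3 phosphofructokinase genes moved apart. PFKL, the liver-type subunit (chromosome 21, 44300051 to 44327376), stood at 81.3, 101 and 80.3 CPM in control and at 170, 152 and 157 CPM in knockdown libraries. All knockdown libraries were above all controls, a 1.82-fold rise (log2 fold change 0.86, SE 0.09, adjusted p = 1.61e-06). PFKM, the muscle-type subunit, went from 130, 143 and 126 CPM down to 97.0, 94.7 and 97.6 CPM, a 1.38-fold fall (-0.46, SE 0.07, adjusted p = 7.36e-05). SENP1, which shares 628 bp of exon with PFKM on the opposite strand, also had fewer counts, 642, 682 and 696 against 320, 394 and 347, and its part in the PFKM value was not tested. PFKP, the platelet-type subunit and the most abundant, went from 962 ± 98.2 to 802 ± 31.5 CPM without overlap (-0.26, SE 0.07, adjusted p = 0.00906). That call was lost without si-CHAF1A 2 or 3 (adjusted p = 0.0512 and 0.0616).

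PFKFB3 and PFKFB4 make the fructose bisphosphate that activates phosphofructokinase. PFKFB3 rose 1.30-fold, from 281, 308 and 294 CPM to 385, 383 and 380 CPM (log2 fold change 0.38, SE 0.06, adjusted p = 0.00014), with no overlap. PFKFB4 overlapped at 29.5 ± 1.94 and 29.4 ± 0.918 CPM (-0.01, SE 0.09, adjusted p = 0.956). Of the aldolases, which cleave the sugar, ALDOC fell 1.59-fold, from 13.3, 15.6 and 15.8 CPM to 9.75, 7.47 and 10.99 CPM (-0.67, SE 0.14, adjusted p = 0.00131). ALDOA, the main form in most tissues, was counted at 18.6, 43.6 and 18.1 CPM in control and 27.0, 22.5 and 22.2 CPM in knockdown libraries. Only si-Ctrl 2 lay above the knockdown range, and the fitted difference of -0.18 (SE 0.43) turned to 0.37 (adjusted p = 0.00183) without that library. ALDOA shares 1657 of its 3916 exon bases with the overlapping gene AC093512.2 on the same strand, so its level here is uncertain.

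Below the split of the sugar, TPI1, PGK1, PGAM1, ENO1, ENO2 and LDHA were lower, while GAPDH and PKM did not pass the test. TPI1, which interconverts the cleavage products, stood at 593, 694 and 593 CPM in control and at 448, 430 and 470 CPM in knockdown libraries, a 1.39-fold fall (log2 fold change -0.48, SE 0.07, adjusted p = 7.06e-05). GAPDH, the oxidising step and a common reference gene, went from 2927 ± 163 to 2676 ± 62.4 CPM; its groups did not overlap, but the difference did not pass (-0.13, SE 0.06, adjusted p = 0.11). PGK1, the first ATP-yielding enzyme, fell 1.15-fold from 892 ± 26.9 to 775 ± 2.70 CPM (adjusted p = 0.0102), a call lost without si-CHAF1A 2 or 3 (0.0505 and 0.0528). PGAM1, the mutase that follows, fell 1.20-fold from 536 ± 20.4 to 448 ± 2.84 CPM (adjusted p = 0.00238).

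Of the enolases, ENO1 and ENO2 fell. ENO1, the ubiquitous form, fell 1.24-fold from 1929 ± 216 to 1553 ± 33.9 CPM (adjusted p = 0.00316), and ENO2, the neuronal form, fell 1.27-fold from 127 ± 16.03 to 100 ± 1.74 CPM (adjusted p = 0.00331). Neither had overlapping groups. ENO3, the muscle form and not a member, overlapped at 11.2 ± 1.41 and 11.9 ± 1.03 CPM (log2 fold change 0.08, adjusted p = 0.651). PKM, the pyruvate kinase of most tumours, overlapped at 2458 ± 249 and 2299 ± 25.6 CPM (log2 fold change -0.10, SE 0.07, adjusted p = 0.305).

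LDHA, which makes lactate from pyruvate (chromosome 11, 18394388 to 18408425), also fell. It read 2058, 2091 and 2051 CPM in control and 1490.5, 1554 and 1530 CPM in knockdown libraries, a 1.36-fold fall (log2 fold change -0.44, SE 0.06, adjusted p = 1.91e-05). LDHB, the other common subunit, had 3 counts over the control libraries and 0 over the knockdown libraries and was not tested. Of the 2983 exon bases of LDHB, 997 are shared with AC010197.2 on the same strand, which had 0 counts, and whether the overlap lowered either count was not tested. Summed over the 19 enzymes the level was 13010.3, 14671 and 13227 CPM in control and 11870.2, 11723 and 11898 CPM in knockdown libraries, with no overlap and a mean 13.2% lower. The control mean includes si-Ctrl 2, the highest library. The sum weighs genes by level, and GAPDH, PKM, LDHA and ENO1 had the highest control means (2927, 2458, 2067 and 1929 CPM). Of these GAPDH and PKM did not pass the test. Without GAPDH the mean of the sum was 14.5% lower. ALDOA (26.7 CPM in control, 23.9 CPM in knockdown cells) and LDHB, which share exons with genes on the same strand, are in the sum.

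The glucose transporter SLC2A1 fell. SLC2A1, the basal glucose transporter (chromosome 1, 42925375 to 42959176), stood at 157, 180 and 154 CPM in control and at 117, 119 and 119 CPM in knockdown libraries. The groups were well apart, a 1.38-fold fall (log2 fold change -0.47, SE 0.07, adjusted p = 9.06e-05). SLC2A3, another glucose transporter, which is no member and is named after its values were seen, went the other way at a low level, from 1.71 ± 0.445 to 4.30 ± 0.659 CPM (1.31, SE 0.24, adjusted p = 0.000391). SLC16A3, the lactate exporter of glycolytic cells, read 73.1, 91.5 and 73.2 CPM against 97.1, 87.2 and 87.1 CPM, and si-Ctrl 2 alone made the groups overlap (0.19, SE 0.09, adjusted p = 0.105). SLC16A3 passed as higher without si-Ctrl 2 (0.30, adjusted p = 1.97e-05), with upper-quartile factors (0.24, adjusted p = 0.0406) and with library totals alone (0.24, adjusted p = 0.0266). CSNK1D shares 482 bp of exon with SLC16A3 on the opposite strand. It had 3315, 4789 and 3609 counts in control and 3855, 3694 and 3686 in knockdown libraries, and its part in the SLC16A3 value was not tested. PDK1, the kinase that shuts pyruvate dehydrogenase, fell 1.35-fold, from 53.9, 42.2 and 54.9 CPM to 36.1, 39.7 and 36.1 CPM (-0.43, SE 0.10, adjusted p = 0.00276).

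**Figure D2:**
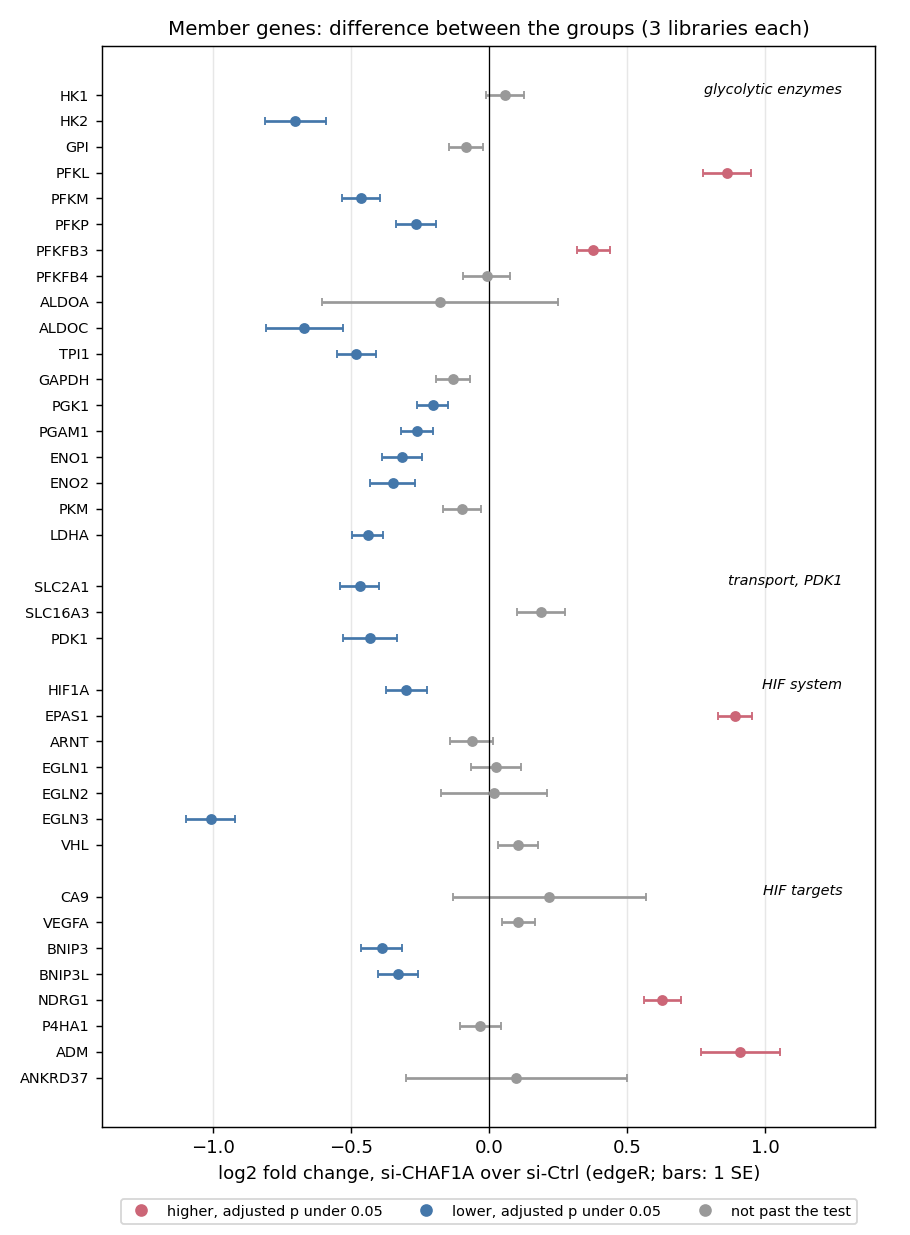
Fitted log2 fold change of si-CHAF1A over si-Ctrl (x axis; bars, 1 SE) for the 36 tested members in order of role (y axis), coloured by the edgeR call. Of the enzymes, 10 lie left of 0 past the test, and PFKL at 0.86 and PFKFB3 at 0.38 lie right of it.

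In the HIF system the alpha subunits went in opposite directions. HIF1A, the broadly expressed subunit tied to glycolytic targets, stood at 1298, 1076 and 1302 CPM in control and 957, 1024 and 1009 CPM in knockdown libraries. The lowest control, si-Ctrl 2, was still above all knockdown libraries, and the fall was 1.23-fold (log2 fold change -0.30, SE 0.07, adjusted p = 0.00458). EPAS1, also called HIF-2 alpha (chromosome 2, 46293667 to 46386703), rose 1.86-fold, from 155, 164 and 161 CPM to 294, 306 and 292 CPM (0.89, SE 0.06, adjusted p = 2.34e-08). Its libraries were far apart relative to their spread, and among the members it had the smallest p. ARNT, the shared partner, was at 38.4 ± 1.34 and 36.8 ± 1.20 CPM with overlap (-0.06, SE 0.08, adjusted p = 0.566).

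EGLN3, the prolyl hydroxylase that is itself a HIF target (chromosome 14, 33924231 to 34462774), had the largest fall of the members. It stood at 32.2, 35.3 and 32.1 CPM in control and at 16.3, 16.4 and 16.8 CPM in knockdown libraries, a 2.01-fold fall (log2 fold change -1.01, SE 0.09, adjusted p = 3.79e-07). EGLN1, the main oxygen sensor of the family, read 46.5, 46.3 and 47.5 CPM against 50.1, 40.8 and 51.9 CPM, and the knockdown libraries lay on either side of the controls (0.03, SE 0.09, adjusted p = 0.846). EGLN2 was counted at only 5.49 ± 0.396 and 5.58 ± 1.51 CPM (0.02, SE 0.19, adjusted p = 0.948), and it shares 2012 of its 6577 exon bases with the read-through gene RAB4B-EGLN2. VHL, which recognises the hydroxylated alpha subunits, was at 55.6 ± 1.06 and 59.9 ± 3.11 CPM, with all knockdown libraries above all controls but no call (0.11, SE 0.07, adjusted p = 0.266).

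Of the 8 HIF target genes 2 fell and 2 rose, where 19.3% of all tested genes were lower and 18.5% higher. Whether the mix among these 8 differs from that of all tested genes was not tested. BNIP3 and BNIP3L, mitophagy receptors, both fell. BNIP3 went from 153, 133 and 154 CPM to 105, 115 and 116 CPM (log2 fold change -0.39, SE 0.07, adjusted p = 0.00071) and BNIP3L from 94.1, 82.9 and 91.4 CPM to 68.3, 70.2 and 74.999 CPM (-0.33, SE 0.07, adjusted p = 0.00207). Neither had overlapping groups. PNMA2 shares 330 bp of exon with BNIP3L on the opposite strand and had 1023, 1295 and 1206 counts in control and 1205, 1251 and 1223 in knockdown libraries. NDRG1, a stress-responsive gene often used as a hypoxia marker, rose 1.55-fold, from 147, 167 and 149 CPM to 238, 239 and 240 CPM (0.63, SE 0.07, adjusted p = 2.50e-06). ADM, a vasodilator peptide, rose 1.88-fold, from 6.08, 8.39 and 6.65 CPM to 11.5, 14.7 and 13.7 CPM (0.91, SE 0.14, adjusted p = 0.000134). These 2 genes were above every control in every knockdown library.

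The other targets did not pass. VEGFA, the angiogenic growth factor, was at 176, 178 and 173 CPM in control and 189, 188 and 190 CPM in knockdown libraries, without overlap and with a difference of 0.11 on the log2 scale (SE 0.06, adjusted p = 0.175). VEGFA passed without si-Ctrl 2 (adjusted p = 0.0313) and with library totals alone (0.16, adjusted p = 0.0458). P4HA1, a collagen prolyl hydroxylase, was at 69.3 ± 4.35 and 67.8 ± 4.32 CPM (-0.03, SE 0.08, adjusted p = 0.788). CA9, the carbonic anhydrase used as a hypoxia marker, lay near 1 CPM in both groups (1.15 ± 0.542 and 1.37 ± 0.171 CPM), as did ANKRD37 (0.862 ± 0.414 and 0.941 ± 0.171 CPM). At this depth CA9 and ANKRD37 rest on 134 and 96 counts over all 6 libraries, with SEs of 0.35 and 0.40 on the log2 scale. ARHGEF39 and UFSP2 lie on the opposite strand and share 643 and 909 bp of exon with CA9 and ANKRD37, whose levels are therefore uncertain.

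Within enzyme families, levels were compared as CPM per kilobase of annotated exon. Platelet-type PFKP made up 87.7% ± 0.219 of the phosphofructokinase total in control and 84.2% ± 0.348 in knockdown cells, while PFKL went from 4.32% ± 0.143 to 9.07% ± 0.264. EPAS1 went from 8.51% ± 1.06 to 17.4% ± 0.452 of the total of HIF1A and EPAS1, so HIF1A stayed the larger share in each library. EGLN3 went from 38.3% ± 1.53 to 23.5% ± 2.59 of the EGLN total. EGLN2, which shares 2012 exon bases with RAB4B-EGLN2, held 7.09% ± 0.462 and 8.68% ± 1.57 of that total. Whether the overlap lowered the EGLN2 count, and so raised the other shares, was not tested. Among hexokinases, HKDC1, a further hexokinase outside the members, held 64.0% ± 0.819 and 65.3% ± 0.555, and HK2 only 5.31% ± 0.312 and 3.23% ± 0.133. The exon lengths are sums over all annotated transcripts, so the shares depend on which transcripts the cells make.

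The log2 ratio of 2 genes of a family was compared between the groups for 10 pairs. With 3 libraries against 3 the exact two-sided permutation test cannot go below p = 0.1, so no pair could pass. PFKL over PFKP differed by 1.13, EPAS1 over HIF1A by 1.18, EGLN3 over EGLN1 by -1.002 and HK2 over HK1 by -0.73, each with no overlap between the groups (exact p = 0.1, 0.167 after adjustment over the 10 pairs). PFKFB4 over PFKFB3 and PFKM over PFKP also had no overlap, with differences of -0.38 and -0.20 (exact p = 0.1). ENO2 over ENO1 overlapped, with -3.92 ± 0.0181 in control and -3.95 ± 0.0536 in knockdown cells, as did BNIP3L over BNIP3 with -0.71 ± 0.0363 and -0.65 ± 0.0512. EGLN2 over EGLN1 overlapped as well, and ALDOC over ALDOA differed by -0.61 with the si-Ctrl 2 library overlapping the knockdown range.

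**Figure D3:**
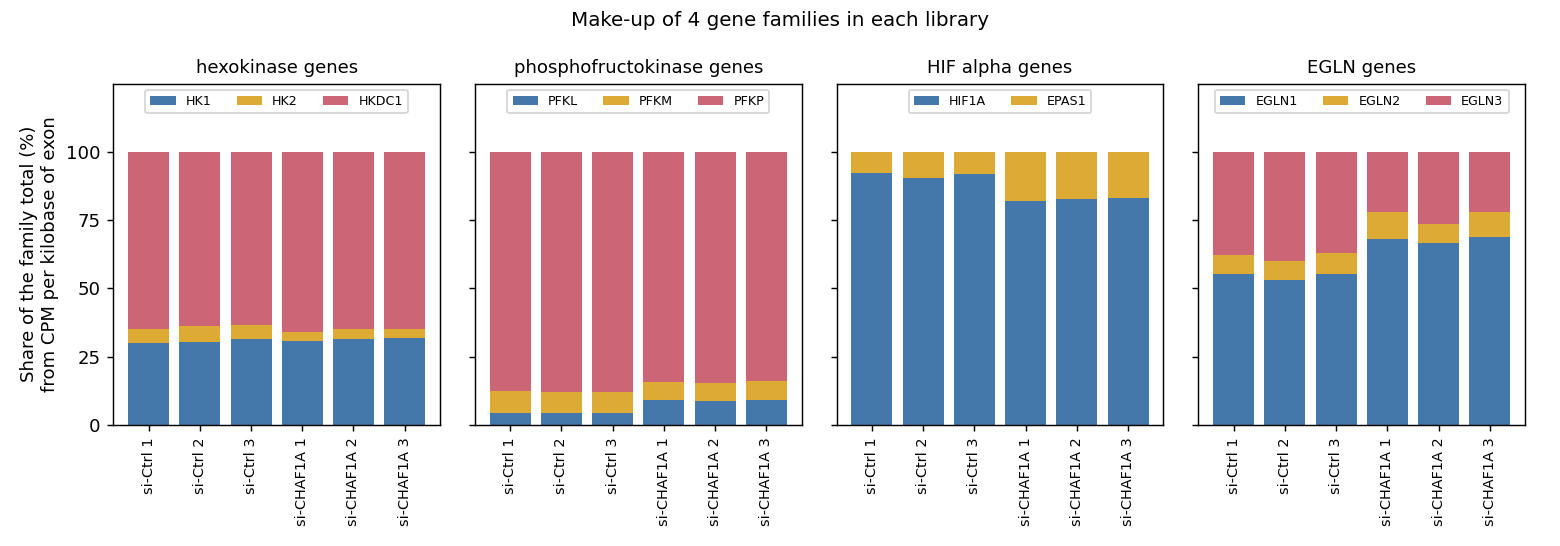
Share of each gene in its family total (y axis, percent, from CPM per kilobase of exon) in each of the 6 libraries (x axis) for hexokinase, phosphofructokinase, HIF alpha and EGLN genes. PFKL and EPAS1 take larger shares in the 3 si-CHAF1A libraries (9.07% and 17.4% on average), and EGLN3 a smaller share (23.5%).

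Further genes of these pathways were read from 5 lists. Of 32 other genes of glucose and lactate handling 19 were tested, and 3 were higher (15.8%, against 18.5% of all tested genes) and 2 lower (10.5%, against 19.3%), with a median log2 fold change of 0.08. PCK2, the mitochondrial enzyme that makes phosphoenolpyruvate, rose 1.72-fold from 16.7 ± 2.63 to 28.9 ± 0.593 CPM. SLC16A7, a high-affinity carrier of monocarboxylates such as pyruvate, fell 1.77-fold from 45.5 ± 7.51 to 25.6 ± 0.813 CPM, and PGM2, a phosphopentomutase, fell 1.42-fold. FBP2, the muscle form of the enzyme that reverses the phosphofructokinase step, had 0 counts in each control library and 2.62, 2.53 and 3.81 CPM in the knockdown libraries. Against a floor of 3 counts over the control group it was at least 52.8-fold higher. FBP2 passed the filter on low counts only through the knockdown libraries, so it had to differ, and its place among the 3 genes called higher is no support for the list. PCAT7, which shares 212 bp of exon with FBP2 on the opposite strand, had 0 counts in each control library and 85, 81 and 84 in the knockdown libraries, so without a stated strand setting reads of the pair cannot be told apart.

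For pyruvate entry into mitochondria 13 of 13 genes were tested, and 2 were higher (15.4%) and 4 lower (30.8%), against 18.5% and 19.3% of all tested genes (median -0.15). PDHX, which anchors a subunit of the pyruvate dehydrogenase complex, fell 2.82-fold from 57.4, 51.5 and 53.7 CPM to 17.2, 20.6 and 19.7 CPM (adjusted p = 5.25e-09). APIP shares 259 bp of exon with PDHX on the opposite strand and had 453, 391 and 463 counts in control and 366, 406 and 377 in knockdown libraries. The acetyltransferase core DLAT fell 1.29-fold, and PDP2, a phosphatase that switches the complex on, fell 1.65-fold from 46.2 ± 4.12 to 27.997 ± 2.14 CPM. PDK4, a kinase that switches it off, rose 1.88-fold from 17.2 ± 1.499 to 32.2 ± 1.55 CPM, opposite to PDK1. In the pentose phosphate pathway 1 of 8 was higher and 2 lower (median -0.13), beside 18.5% and 19.3% of all tested genes. H6PD, the enzyme of the endoplasmic reticulum, rose 1.32-fold, while RPE, the epimerase of the pathway, fell 1.22-fold.

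Of 9 other tested HIF system genes 0 were higher and 3 lower (33.3%), against 18.5% and 19.3% of all tested genes (median -0.19). By DESeq2 0 were higher, beside 13.4% of all genes tested by DESeq2. By edgeR at an unadjusted p under 0.05, 1 was higher, for which the share of all genes is not given. RBX1 and ELOC, partners of VHL in its ubiquitin ligase, fell 1.51-fold and 1.31-fold, and the HIF coactivator EP300 fell 1.15-fold. Of 30 other tested HIF targets 15 were higher and 7 lower (median 0.25), where 18.5% and 19.3% of all tested genes were called. CA12, a carbonic anhydrase, rose 2.56-fold from 10.7 ± 0.358 to 27.3 ± 1.88 CPM, and ERO1A, the oxidase of disulfide formation, rose 1.98-fold from 71.6 ± 10.9 to 141 ± 5.29 CPM. PLOD2, a collagen lysyl hydroxylase, fell 2.33-fold from 42.3 ± 4.88 to 18.1 ± 1.16 CPM. These targets moved in both directions, as the members did, but more of them were higher than lower. The lean was the other way among the 36 tested members, with 5 higher and 16 lower (median -0.11). Whether the mix differs between these sets was not tested.

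**Figure D4:**
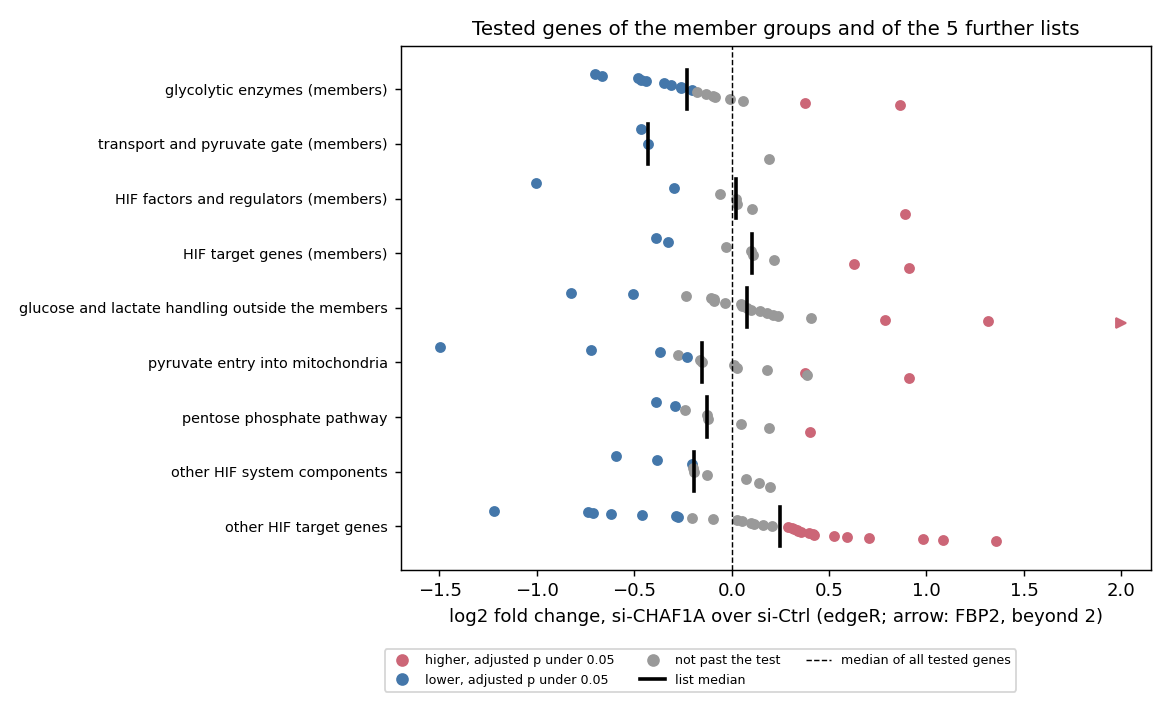
log2 fold change of each tested gene (x axis) in the 4 groups of members and the 5 further lists (y axis), coloured by the edgeR call, with each list's median as a bar and the median of all tested genes as a dashed line and FBP2, beyond the axis, as an arrow. The enzymes' median lies at -0.23 and that of the other HIF targets at 0.25.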

How the data were processed

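The authors deposited 1 table of whole-number read counts per Ensembl gene for the 6 libraries, as raw counts. Tools and build named in the submitters' processing notes are fastp 0.20.1, HISAT2 2.1.0, SAMtools 1.9, featureCounts 2.0.1, StringTie 2.1.4 and hg38. The design text plans strand-specific libraries, but how featureCounts treated strand and shared reads is not given in the sources used here. Columns headed NC and si were matched to si-Ctrl and si-CHAF1A by number. Symbols came from a gene name table (62665 of 63186 identifiers), and positions and exon lengths from GENCODE 29 (GRCh38).

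The whole table was fitted with edgeR 4.0.16 (R 4.3.3): filterByExpr (minimum count 10, minimum total 15), TMM, robust quasi-likelihood test, Benjamini-Hochberg adjustment over 15911 genes, threshold 0.05. "Rose" and "fell" mean past it. SE is the size of the log2 fold change divided by the square root of F. The fit was tested on simulated data. Family ratios used log2(CPM + 0.5) and scipy 1.17.1. Alternatives were DESeq2 1.42.0, other size factors, no filter, each library left out and a replicate block. All 37 members are named, and from each further list up to 4 called genes with the smallest adjusted p, of which some are not reported here. The ratio of LDHB to LDHA was not computed, since LDHB had 3 counts. The members and lists were chosen with earlier results of these data known. Replicates are described only as biological, with nothing on separate cultures, so a p-value reflects variation among these 6 libraries, which may be technical.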

Additional observations from a re-analysis of the deposited data

How the results depend on the processing

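Over the 6 fits that each left out 1 library, the members called higher ranged from 5 to 9 and those called lower from 14 to 17. In these fits 14.2% to 21.3% of all tested genes were higher and 14.3% to 22.5% lower. The highest counts came without si-Ctrl 2 (9 and 17, beside 21.3% and 22.5% of all). The 14 lower came without si-CHAF1A 2 or 3, where 14.3% and 14.6% of all were lower. Other size factors, no filter on low counts, DESeq2 and the replicate block gave 5 to 7 higher and 16 lower. There 8.45% to 21.7% of all genes were higher and 8.77% to 19.1% lower. CHAF1A stayed between -2.28 and -2.13. With the replicate number as a block (replicate block) 5 members were higher and 16 lower, and all genes called came to 2675 higher and 2723 lower. Same-numbered libraries did not deviate together (correlations of -0.0859, -0.0643 and -0.00313), so the numbers were not taken as pairs. Members that were not called changed sign in some fits. PFKFB4 came to 0.039 with upper-quartile factors and 0.045 with library totals, P4HA1 to 0.016 and 0.019 with the same factors, and EGLN2 to -0.0075 with the replicate block. Over the left-out libraries PFKFB4 ranged from -0.061 to 0.028, ALDOA from -0.40 to 0.37, EGLN1 from -0.041 to 0.13, EGLN2 from -0.13 to 0.23, CA9 from -0.053 to 0.64, P4HA1 from -0.088 to 0.0077 and ANKRD37 from -0.23 to 0.32. ALDOA was positive without si-Ctrl 2, and CA9 and ANKRD37 were negative without si-Ctrl 1. The EGLN2 over EGLN1 difference ranged from -0.12 to 0.089. The ALDOC over ALDOA difference ranged from -0.98 without si-Ctrl 2 to -0.35. The cause of these changes was not tested. CA9, ANKRD37, EGLN2 and LDHB rest on 134, 96, 581 and 3 counts, which limits their precision.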

Other observations

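In control cells GAPDH, PKM, LDHA and ENO1 ranked 16, 22, 26 and 30 among the 15911 tested genes by CPM, and HIF1A ranked 57. ALDOA, often among the abundant glycolytic transcripts, ranked 6556, and the overlapping AC093512.2 had 45, 82 and 50 counts in the control libraries 1, 2 and 3. In the knockdown libraries it had 59, 46 and 51. The highest count of AC093512.2 was thus in si-Ctrl 2, the library in which ALDOA was also highest. Named pseudogenes held few counts beside those of the abundant members. How reads that match several places were counted is not given, so reads lost to or shared with such copies cannot be seen here. The 65 GAPDH pseudogenes held 0.990% of the counts of GAPDH and these pseudogenes together. The 4 of TPI1 held 0.893%, the 6 of LDHA held 0.107% and the 13 of PGAM1 held 0.219%. The 44 BNIP3 pseudogenes held 2.02%.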
